A study of Mus musculus with 24 samples.

Results

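Gene expression in the hippocampus of 5xFAD mice dosed with MS1262 was compared with that of untreated wild-type mice. The comparison took 8 of the 24 libraries of the series: the 4 input libraries of MS1262-dosed 5xFAD mice and the 4 input libraries of wild-type mice that received no treatment, each labelled as a separate biological replicate and taken here as 1 mouse. They were chosen by their labels alone. The other libraries were the 4 inputs of 5xFAD mice given vehicle and the 12 immunoprecipitations for N6-methyladenosine (m6A) made from the same RNA samples. An input library is the poly(A) RNA of the hippocampus before the antibody step, so it reads mRNA level. The labels call the wild-type mice age-matched and, like the sources used here, give no age, dose or dosing schedule. Since the wild-type mice were neither transgenic nor dosed, genotype and dosing cannot be told apart in this comparison. The vehicle-dosed 5xFAD libraries stood beside it for that reason, and MS1262 was also tested against them directly.

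5xFAD mice carry mutant human transgenes, APP among them, driven by neuronal Thy1 promoter elements and deposit amyloid in the brain. Microglia, the resident phagocytes of the brain, take up amyloid through lysosomes and, around plaques, switch on a set of genes known as the disease-associated state, while astrocytes react with intermediate filaments and complement. MS1262 is described by the submitters as a brain-penetrant inhibitor of G9a. G9a (Ehmt2), with its partner GLP (Ehmt1), methylates histone H3 at lysine 9, a mark of silent chromatin.

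The 4 wild-type libraries held 38, 40.7, 23.3 and 43.2 megacounts (estimated counts divided by 1e6) and the 4 MS1262 libraries 41.8, 24.8, 34.5 and 38.9 megacounts. Xist, the RNA of the inactive X chromosome, lay between 21.5 and 45.8 CPM (counts per 1e6 counts of the library, scaled by the trimmed mean of M values, TMM) in all 8 libraries. Wild-type library 3 stood apart from the rest of its group by its choroid plexus genes, whose summed level was 2925 CPM against 836 to 934 CPM in the other 3 wild-type libraries and 713 to 1170 CPM in the MS1262 libraries. Vehicle library 3 held 21641 CPM of the same genes and 1.29 CPM of Xist. It entered the comparison with wild-type through the low-count filter, the scaling and the shared estimate of spread. The Y-linked genes Ddx3y and Eif2s3y held 0 counts in every input library, vehicle library 3 included. Kdm5d and Uty, also Y-linked, held 2 and 4 counts over the wild-type libraries and 0 in both 5xFAD groups. Excitatory neuron markers summed to 2297 to 2898 CPM in wild-type and 2346 to 2712 CPM in MS1262 libraries, and the groups overlapped.

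Of 17693 tested genes, 230 passed an adjusted p of 0.05 (edgeR quasi-likelihood test, Benjamini-Hochberg), which is 1.30% and is referred to here as called. Higher genes numbered 161 (0.910% of tested genes) and lower genes 69 (0.390%). The 2 directions differed in size and level. Higher calls had a median fold of 2.56 and a median wild-type level of 5.14 CPM, and 111 of them changed at least 2-fold (0.627% of tested genes). Lower calls had a median fold of 1.66 and a median wild-type level of 90.2 CPM, and 24 changed at least 2-fold (0.136%). Together those 135 were 0.763% of tested genes. In all 161 higher and in 67 of the 69 lower genes the 4 MS1262 values did not overlap the 4 wild-type values, against 5.23% and 4.90% of all tested genes (10.1% together). The calls were made from the same values, so separation of called genes was largely set by the call and adds no support. The number called moved when single libraries were left out. It fell to 132, 124 and 137 genes without wild-type library 2, 3 or 4, and to 115, 105 and 136 genes without MS1262 library 2, 3 or 4, while 85 genes (65 higher and 20 lower) were called under each of the 8 single omissions. On the authors' TPM scale, which adjusts for transcript length, limma on log2(TPM + 1) called 60 higher and 72 lower genes, so higher genes did not outnumber lower genes in that run. The run also changed the test and the scaling, added 1 before the logarithm and kept only genes with a mean TPM of at least 1. It tested 201 of the 230 genes. Which of these changes moved the balance was not tested.

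**Figure D1:**
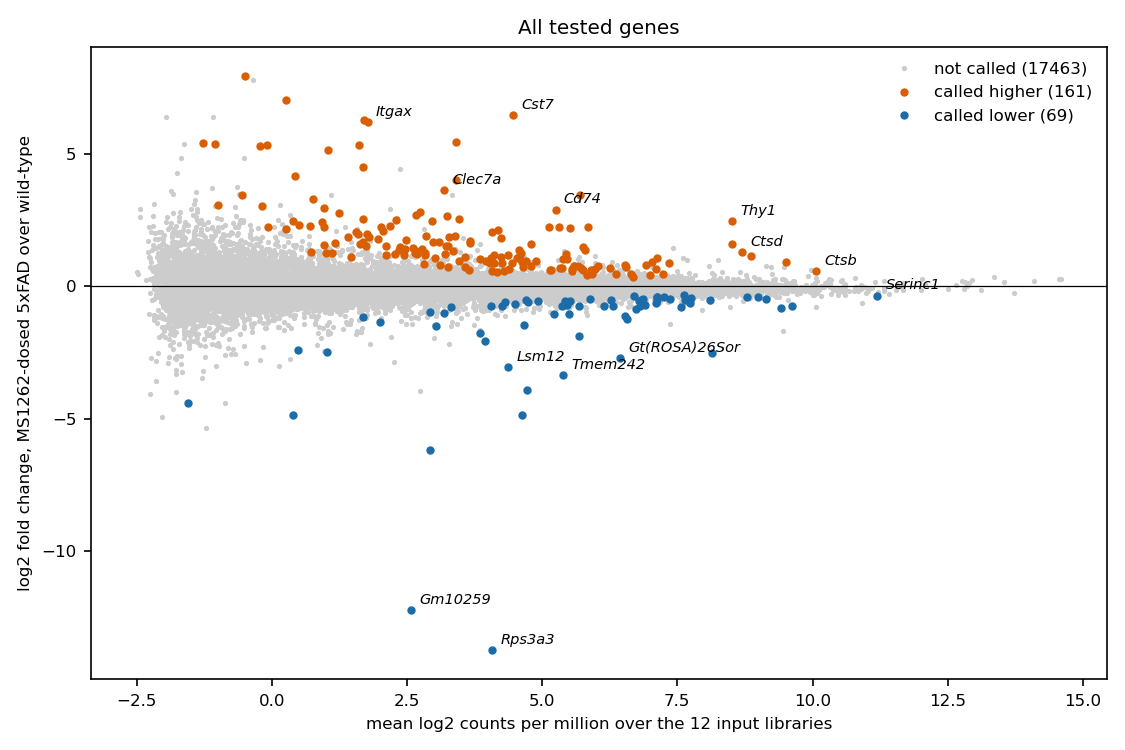
Log2 fold change of MS1262-dosed 5xFAD over wild-type (vertical axis) against mean log2 CPM over the 12 input libraries (horizontal axis), 1 point per tested gene. The 161 called higher genes (orange) lie mostly at low to middle levels and the 69 called lower genes (blue) extend to the highest levels, with 2 pseudogenes below -12.

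Among called genes with a mean log2 CPM of at least 1, predicted genes and pseudogenes passed over, the 10 largest rises were those of Cst7, Dcstamp, Itgax, Ctse, Ccl3, Cd200r4, Lilrb4a, Clec7a, Ccl6 and Cd74. Cst7, an inhibitor of lysosomal cysteine proteases and a marker of the disease-associated state, measured 0.319, 0.484, 0.22 and 0.481 CPM in wild-type libraries and 17.2, 51.6, 34.9 and 37.5 CPM in MS1262 libraries. Every MS1262 value lay far above every wild-type value, a rise of 6.48 ± 0.61 (SE) on the log2 scale (adjusted p = 8.91e-05, edgeR, as for every adjusted p below unless another tool is named). Itgax, the integrin subunit CD11c, measured 0.0796, 0.0726, 0 and 0.115 CPM in wild-type and 3.65, 9.07, 6.13 and 4.21 CPM in MS1262 libraries (log2 fold change 6.21 ± 0.69, adjusted p = 0.000412). Clec7a, the beta-glucan receptor dectin-1, rose from a range of 0.796 to 1.45 CPM to 7.18 to 17.6 CPM (3.62 ± 0.53, adjusted p = 0.00321). Ccl3 and Ccl6, chemokines whose genes lie near each other on chromosome 11, rose by 5.33 ± 0.64 and 3.46 ± 0.46 log2 units. Dcstamp, a membrane protein required for fusion of osteoclasts, varied among the dosed mice, with 5.37, 16.2, 4.2 and 2.99 CPM against 0.0531 to 0.121 CPM in wild-type. In bulk tissue, more microglia and more RNA per microglial cell cannot be told apart, and this holds for each cell type named here.

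Promoters of the higher genes are shown because PU.1 (Spi1), the ETS-family factor on which microglia depend, binds sites with the core GAGGAA. Spi1 itself did not pass the filter on low counts and was not tested. The 250 bases before the transcription start were taken from RefSeq, build GRCm38.p6, where 114 of the 161 higher and 39 of the 69 lower genes had an entry. The core GAGGAA on either strand (TTCCTC on the other) was present in 46 of 114 higher genes (40.4%), 4 of 39 lower genes (10.3%), 22.4% of the 12554 tested genes with an entry and 23.1% of all 27025 promoters. The longer GAGGAAGT, which contains that core, was present in 6 higher genes (5.26%), in no lower gene and in 2.25% of tested genes. By list, 11 of 28 disease-associated (39.3%) and 5 of 12 homeostatic microglial genes (41.7%) with an entry held the core. Of the promoters printed here, C1qb, C1qc, Ctss and Clec7a hold the core once each, starting 30, 193, 164 and 96 bases before the transcription start. In C1qc it is part of the longer motif. Cst7 and Itgax, the list genes with the largest rises, hold none in this window. A match is an exact string of letters and no measure of binding, and the lack of a match is no measure of its absence. Capitals mark the core on either strand.
C1qb (chr4:136886201-136886450, minus strand): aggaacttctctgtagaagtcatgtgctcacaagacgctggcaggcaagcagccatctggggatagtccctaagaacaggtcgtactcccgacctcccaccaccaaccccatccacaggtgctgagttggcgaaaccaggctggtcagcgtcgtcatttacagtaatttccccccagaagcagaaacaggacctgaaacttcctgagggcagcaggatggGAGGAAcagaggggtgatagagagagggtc
C1qc (chr4:136892915-136893164, minus strand): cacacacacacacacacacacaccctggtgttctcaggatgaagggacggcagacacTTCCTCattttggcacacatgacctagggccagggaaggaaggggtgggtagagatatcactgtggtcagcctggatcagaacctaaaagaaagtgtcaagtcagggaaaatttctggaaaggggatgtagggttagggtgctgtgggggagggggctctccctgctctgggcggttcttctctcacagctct
Ctss (chr3:95526536-95526785, plus strand): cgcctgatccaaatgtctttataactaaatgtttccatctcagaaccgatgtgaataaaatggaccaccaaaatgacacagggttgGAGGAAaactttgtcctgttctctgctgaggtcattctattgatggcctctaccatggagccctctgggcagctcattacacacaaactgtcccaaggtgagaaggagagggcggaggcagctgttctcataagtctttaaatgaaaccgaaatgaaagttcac
Clec7a (chr6:129472780-129473029, minus strand): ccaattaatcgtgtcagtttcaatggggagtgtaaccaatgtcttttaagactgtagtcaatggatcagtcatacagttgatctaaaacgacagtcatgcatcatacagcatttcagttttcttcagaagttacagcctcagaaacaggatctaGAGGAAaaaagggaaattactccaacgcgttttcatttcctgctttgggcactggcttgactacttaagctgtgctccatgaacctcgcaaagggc
Cst7 (chr2:150570165-150570414, plus strand): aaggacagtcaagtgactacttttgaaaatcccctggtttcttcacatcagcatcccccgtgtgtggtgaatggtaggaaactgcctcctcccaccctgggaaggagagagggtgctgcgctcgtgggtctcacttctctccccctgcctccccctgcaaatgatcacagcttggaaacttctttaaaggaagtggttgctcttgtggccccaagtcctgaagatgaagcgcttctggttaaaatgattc
Itgax (chr7:128129300-128129549, plus strand): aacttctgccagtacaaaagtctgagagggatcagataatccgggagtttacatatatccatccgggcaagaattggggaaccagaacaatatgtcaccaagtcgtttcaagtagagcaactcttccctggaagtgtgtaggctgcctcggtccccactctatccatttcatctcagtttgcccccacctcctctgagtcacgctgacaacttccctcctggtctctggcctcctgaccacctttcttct

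Among disease-associated microglial genes, all 35 of the list were tested and 20 were called higher and none lower, where 0.910% of all tested genes were called higher. The median of the list was 1.403 log2 units, and -0.0002 over all tested genes. Lists were chosen with earlier results of these data known, so list counts here and below are descriptions. Itgax and Ccl3 held only 11 and 16 counts over the wild-type libraries. A member passing the filter only through its higher group had to differ. Beside Cst7, Itgax, Clec7a and the chemokines, the called genes were Ctse, Cd52, Cybb, Mpeg1, Cd68, Tyrobp, Lyz2, Trem2, Itgb2, Ctsz, Ctsd, Cd9, Csf1, Ctsb and Cd63. Tyrobp, the signalling adaptor of the lipid receptor Trem2, measured 11, 10.4, 10.8 and 7.95 CPM in wild-type and 33.6, 63.2, 41.8 and 53 CPM in MS1262 libraries, a rise of 2.25 ± 0.34 (adjusted p = 0.00392). Trem2 itself measured 7.35, 5.01, 5.09 and 4.1 CPM in wild-type and 14.8, 22.9, 16.9 and 15.1 CPM in MS1262 libraries. The groups did not overlap and the rise was 1.69 ± 0.37, but its adjusted p of 0.0355 lay between 0.0484 and 0.116 when single mice were left out and passed only without wild-type library 1. Mpeg1, the pore-forming perforin-2, rose from 1.23 to 2.63 CPM in wild-type to 9.23 to 12.9 CPM. The 15 members not called included Apoe, the lipid carrier, whose values did not overlap (at most 99.9 CPM in wild-type against at least 116 CPM, 0.51 ± 0.12, adjusted p = 0.0545). In single omissions 15 to 18 members were called. On the TPM scale 15 of 31 were called, and 6 of 35 without a filter on low values. Also not called in the counts were Spp1 (1.33, adjusted p = 0.103), Axl (0.44, 0.174), Lpl (-0.12, 0.839) and Timp2 (0.12, 0.759), given as log2 fold change and adjusted p.

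Homeostatic microglial genes, which define resting microglia, were called higher in 5 of 17 tested members, none was called lower, and all 17 lay above 0 (median 0.70). Olfml3, a secreted glycoprotein typical of microglia, measured 11.6, 10.4, 11.2 and 12.4 CPM in wild-type and 27.7, 35.4, 27.1 and 26.9 CPM in MS1262 libraries (1.36 ± 0.16, adjusted p = 0.000512). Tmem119, a microglia-specific membrane protein, rose from 0.533 to 1.59 CPM to 3.03 to 4.74 CPM. Cx3cr1, the fractalkine receptor, rose less, from 14.3 to 17.4 CPM to 27.5 to 33.2 CPM (0.96 ± 0.17, adjusted p = 0.0112). Fcrls, a receptor-like protein of microglia, rose by 2.22 ± 0.40 (adjusted p = 0.0131). Without wild-type library 2, 3 members were called, and Fcrls was not (adjusted p = 0.0517). P2ry12, the ADP receptor of resting microglia, gave 168 to 189 CPM in wild-type and 179 to 226 CPM in MS1262 libraries, overlapping ranges (0.17, adjusted p = 0.577). Csf1r, the receptor for the microglial growth factor Csf1, did not overlap but was not called (0.88 ± 0.21, adjusted p = 0.055), whereas Csf1 was called (0.83 ± 0.19, adjusted p = 0.0495).

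**Figure D2:**
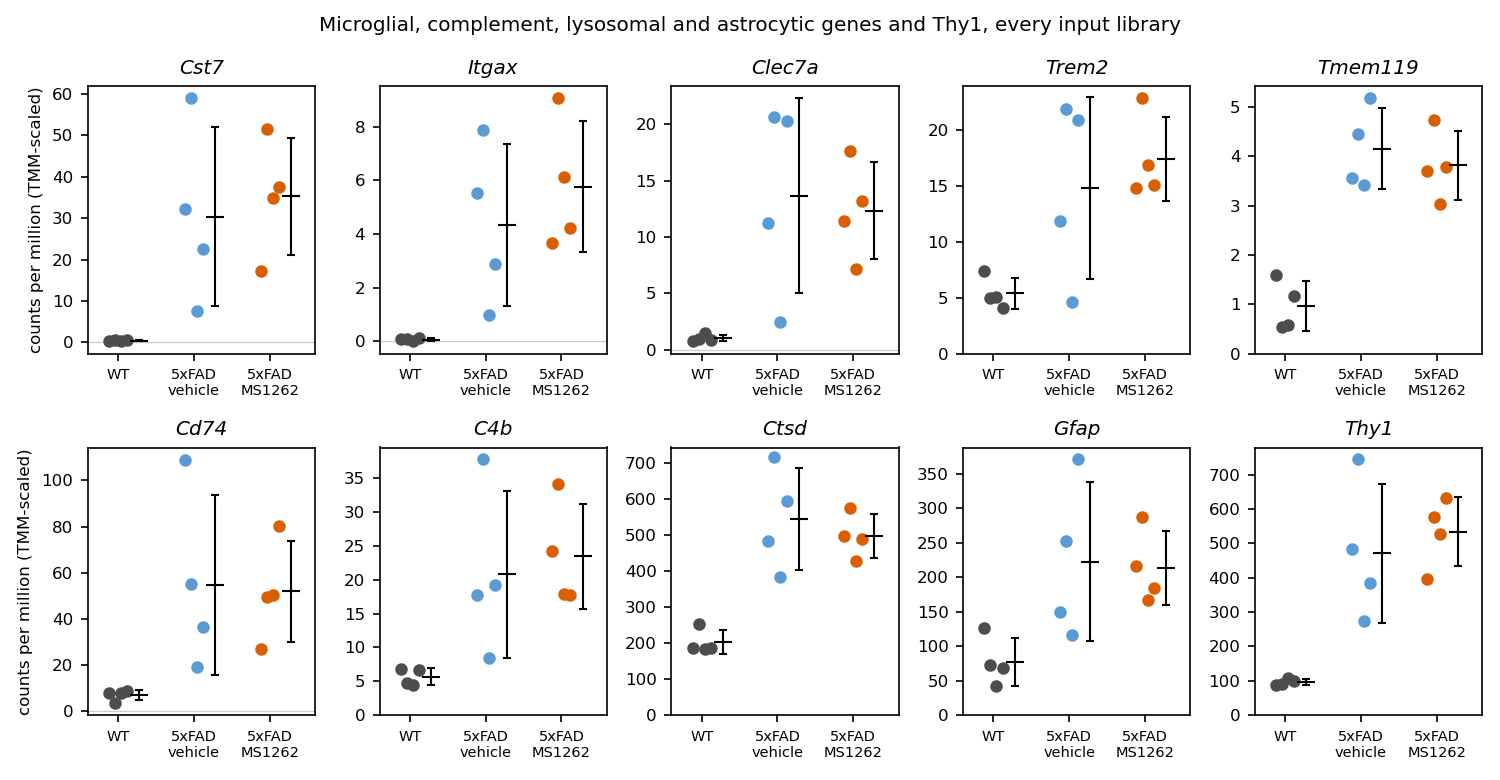
CPM (vertical axes, TMM-scaled, shown from 0) of 10 genes in each input library of wild-type, vehicle 5xFAD and MS1262 5xFAD mice (points), with the group mean and SD beside them (n = 4). In each of the 10 panels the 4 MS1262 points lie above the 4 wild-type points, from Cst7 (17.2 to 51.6 against 0.22 to 0.484 CPM) to Gfap (167 to 287 against 42.5 to 126 CPM).

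Complement genes were called higher in 5 of 17 tested members and lower in none (median 0.41). C1qc and C1qb encode 2 of the 3 chains of C1q, the initiator of the classical pathway. C1qc measured 2.92, 3, 2.99 and 2.41 CPM in wild-type and 6.92, 13.4, 12.1 and 9.76 CPM in MS1262 libraries (1.89 ± 0.28, adjusted p = 0.00321), and C1qb rose by 1.18 ± 0.27 (adjusted p = 0.0479, lost in each of the 8 single omissions). The other chain, C1qa, did not overlap between groups and was not called (1.70 ± 0.43, adjusted p = 0.0719). C4b, a component of the classical pathway that astrocytes also make, measured 6.85, 4.77, 4.48 and 6.6 CPM in wild-type and 24.2, 34.2, 17.9 and 17.7 CPM in MS1262 libraries (2.04 ± 0.36, adjusted p = 0.0112). C3ar1, the receptor for the C3a fragment, rose by 2.55 ± 0.36, and Itgax, as CR4, was the remaining called member. C3 itself overlapped (0.32, adjusted p = 0.788).

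Antigen presentation genes were called higher in 2 of 15 tested members, and all 15 lay above 0 (median 0.80). Cd74, the invariant chain that escorts MHC class II, measured 8.02, 3.53, 7.73 and 8.64 CPM in wild-type and 26.9, 49.6, 50.5 and 80.3 CPM in MS1262 libraries (2.90 ± 0.48, adjusted p = 0.00695). B2m, the light chain of MHC class I, rose by 0.80 ± 0.17 (adjusted p = 0.0327) and was not called in 7 of the 8 single omissions, whose highest adjusted p was 0.0979. H2-Aa, a class II chain, ranged from 0.944 to 2.47 CPM in wild-type and from 3.47 to 14.4 CPM in MS1262 libraries without passing the test (2.16 ± 0.50, adjusted p = 0.0517). Interferon response genes were called in 2 of 25, Irf8 (1.61 ± 0.31) and Trim30a (1.52 ± 0.31), and in none without wild-type library 1, 2 or 4 or MS1262 library 3 or 4. The remaining interferon genes ranged widely, from Xaf1 at -0.77 to Ifi44 at 2.15, and their median of 0.38 came with 19 of 25 above 0.

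The lysosome list had the next largest number of calls, with 15 of 32 tested members called higher and none lower (median 0.45). It shares called members with the disease-associated list, among them Ctsd, Cd68 and Ctsz, so those calls are counted in both lists. Ctsd, the aspartic protease cathepsin D, measured 185, 252, 184 and 187 CPM in wild-type and 497, 574, 428 and 488 CPM in MS1262 libraries (1.30 ± 0.17, adjusted p = 0.00153). Cd68, a glycoprotein of phagocyte lysosomes, rose from 15.5 to 19 CPM to 63.8 to 106 CPM (2.26 ± 0.29, adjusted p = 0.00153). The cysteine proteases Ctss and Ctsz rose by 1.59 ± 0.24 and 1.48 ± 0.22, and Ctsb, the most abundant of the called cathepsins in counts, rose by 0.58 ± 0.12 with at least 1038 CPM in every MS1262 library. Grn, the precursor of the granulins, rose by 1.04 ± 0.17 (adjusted p = 0.00688). Npc2, which carries cholesterol out of the lysosome, rose by 0.47 ± 0.08 (adjusted p = 0.0122). Lamp1, a membrane glycoprotein of lysosomes in most cells, overlapped between groups (0.12, adjusted p = 0.644), and the lowest member of the list lay at -0.47. The count of called members fell to 7 without wild-type library 3 and to 8 without wild-type library 4 or MS1262 library 2 or 3, and was 10 or 11 in the other omissions. On the TPM scale 7 of 31 were called. Autophagy genes were called in 0 of 25 (median 0.02) and proteasome subunits in 0 of 31 (median -0.14).

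Reactive astrocyte genes were called higher in 4 of 21 tested members and lower in none (median 0.50). Osmr, the oncostatin M receptor, measured 3.35, 4.5, 3.42 and 3.87 CPM in wild-type and 10.8, 20.6, 12.8 and 11.8 CPM in MS1262 libraries (1.88 ± 0.30, adjusted p = 0.00513). C4b, Vim and Ggta1 were the others, and Vim, an intermediate filament, rose by 0.95 ± 0.20 (adjusted p = 0.0345). Vim and Ggta1 lost the call in 6 of the 8 single omissions each, and 2 members were called without wild-type library 3 or MS1262 library 1, 2 or 3. Gfap, the astrocytic intermediate filament, measured 126, 72.7, 42.5 and 68.2 CPM in wild-type and 216, 287, 167 and 184 CPM in MS1262 libraries. The ranges did not overlap, yet the adjusted p was 0.0582 (1.46 ± 0.35). Serpina3n, an acute-phase protease inhibitor of reactive astrocytes, overlapped (-0.29, adjusted p = 0.719), and none of 17 homeostatic astrocyte genes was called (median 0.14).

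**Figure D3:**
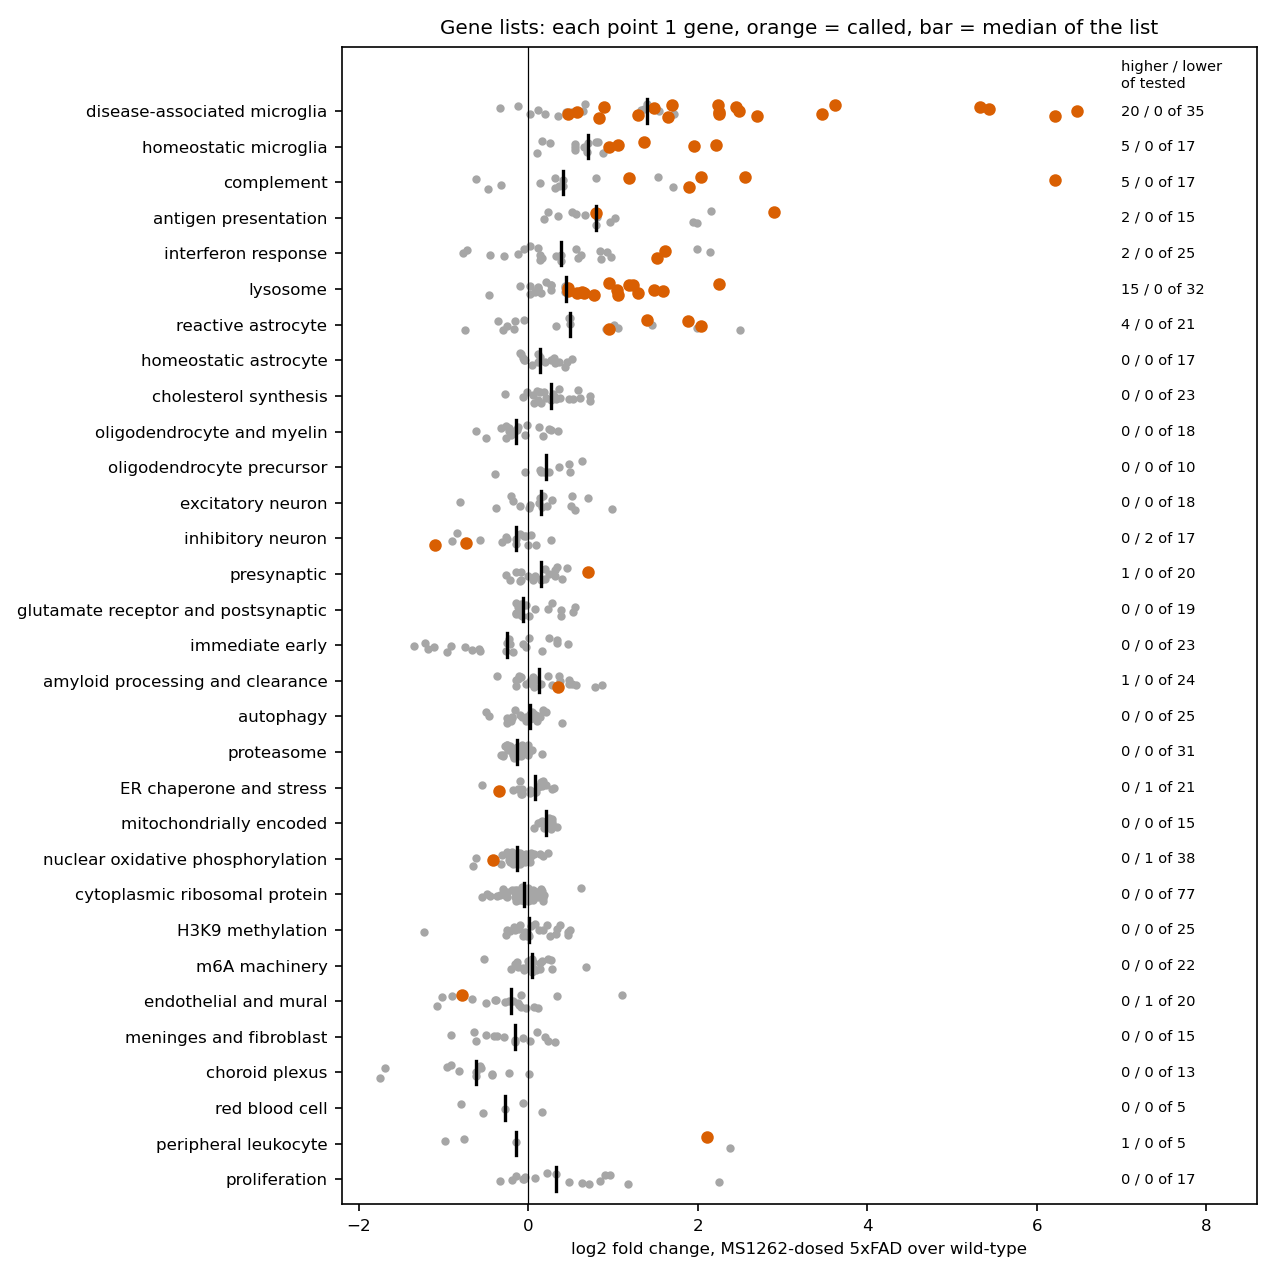
Log2 fold change of MS1262-dosed 5xFAD over wild-type (horizontal axis) for every tested member of 31 gene lists (1 point per gene and list, orange where called, bar at the list's median), with counts of called members at the right. Disease-associated microglia (20 of 35) and lysosome (15 of 32), which share members, hold the most called genes, and the lists of excitatory neurons (0 of 18) and oligodendrocytes (0 of 18) hold none.

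None of 18 excitatory neuron genes, 19 glutamate receptor and postsynaptic genes or 23 immediate early genes was called. Of inhibitory neuron genes 2 of 17 were called lower, where 0.390% of all tested genes were, and the median of the list was -0.15, beside 0.14 for the excitatory list. Sst, the neuropeptide somatostatin of dendrite-targeting interneurons, measured 182, 141, 121 and 103 CPM in wild-type and 70.9, 65.9, 59.8 and 57.5 CPM in MS1262 libraries, and fell by 1.11 ± 0.17 on the log2 scale (adjusted p = 0.0048, called in all 8 single omissions). Npy, a neuropeptide found in part of the same cells, measured 93.3, 76.1, 122 and 69.2 CPM in wild-type and 56.4, 55.4, 51.1 and 53.6 CPM in MS1262 libraries. It fell by 0.73 ± 0.14 (adjusted p = 0.0201) and lost the call without wild-type library 1 (0.0538) or MS1262 library 2, 3 or 4 (0.0632, 0.0745 and 0.0616). Crhbp, a binding protein of corticotropin-releasing hormone that was not in a list and was singled out after its values were seen, fell by 0.61 ± 0.11 (adjusted p = 0.0166). The general markers of inhibitory neurons Gad1 (0.04) and Gad2 (-0.03), which make GABA, lay near 0, and Pvalb (-0.15), Vip (-0.05) and Lhx6 (-0.15) were not called. Bsn, the presynaptic scaffold bassoon, was called higher as 1 of 20 presynaptic genes (0.70 ± 0.14, adjusted p = 0.028), and in 2 of the 8 omissions. Among immediate early genes, wild-type library 3 alone read Fos at 34.7 CPM and Arc at 33.3 CPM, against 3.53 to 16.4 and 7.81 to 16.2 CPM in the other wild-type and 3.7 to 12.1 and 5.79 to 9.21 CPM in the MS1262 libraries. The median of the immediate early list was -0.25.

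Oligodendrocyte and myelin genes were called in 0 of 18 (median -0.14) and precursor genes in 0 of 10 (median 0.21). Endothelial and mural genes were called in 1 of 20, Itm2a, which measured 163, 202, 254 and 308 CPM in wild-type and 129, 152, 131 and 128 CPM in MS1262 libraries (fell by 0.78 ± 0.16, adjusted p = 0.0265, called in 2 of the 8 omissions). Meninges and fibroblast genes (0 of 15, median -0.16), choroid plexus genes (0 of 13, median -0.61) and red blood cell genes (0 of 5, median -0.28) had no call. Ttr, the main secreted protein of choroid plexus, read 748 CPM in wild-type library 3 and 31.3 to 59.3 CPM in the other 3. Of 18 markers of leukocytes from blood, 5 were tested. Ptprc, the pan-leukocyte CD45 that microglia also carry, was called (2.11 ± 0.32, adjusted p = 0.00401), and the T cell, B cell and neutrophil markers Cd3e, Cd4, Cd8a, Ms4a1, S100a8 and Ly6g did not pass the filter on low counts. The summed level of the list was 7.85 to 23.3 CPM in wild-type and 27.8 to 33.6 CPM in MS1262 libraries. Without Ptprc the other 17 genes summed to 2.18 to 17.2 CPM in wild-type and 2.07 to 9.82 CPM in MS1262 libraries, and the groups overlapped.

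Of the model's own genes, Thy1 changed most. Thy1, a surface glycoprotein of neurons, measured 88.7, 89.4, 107 and 99.5 CPM in wild-type and 396, 578, 528 and 632 CPM in MS1262 libraries, a rise of 2.47 ± 0.24 on the log2 scale (adjusted p = 0.000125, called in every alternative run). The transgenes of this model are built on the Thy1 gene, and a count per gene cannot tell Thy1 sequence in a transgene from the mouse gene. The 3 nearest tested genes on each side of Thy1 were not called. The row of mouse App overlapped between groups (543 to 686 CPM against 576 to 657 CPM, 0.07, adjusted p = 0.807). On the TPM scale the sign of the App difference reversed, and it was likewise not called. Bace1, the beta-secretase, was the only one called of 24 amyloid processing and clearance genes. It read 92.7, 85.5, 81.6 and 90.2 CPM in wild-type and 114, 107, 113 and 111 CPM in MS1262 libraries (0.35 ± 0.08, adjusted p = 0.0355), without being called in any of the 8 single omissions (0.0557 to 0.109).

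The targets of MS1262 were not called. Ehmt2 measured 9.74, 8.64, 7.42 and 8.89 CPM in wild-type and 9.66, 8.22, 11.8 and 11.6 CPM in MS1262 libraries, overlapping ranges (0.25 ± 0.18, adjusted p = 0.56). Ehmt1 measured 13.2, 16, 12.1 and 14.3 CPM against 20.9, 14.5, 22.3 and 19.1 CPM (0.47 ± 0.15, adjusted p = 0.155). None of 25 genes of histone H3 lysine 9 methylation and none of 22 genes of the m6A machinery was called, with medians of 0.00 and 0.04.

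The sharpest falls were in genes outside the lists. Tmem242, a mitochondrial membrane protein needed in human cells to assemble ATP synthase, measured 154, 90, 90 and 79.1 CPM in wild-type and 10.3, 11.5, 9.42 and 9.14 CPM in MS1262 libraries, a 10.2-fold lower level (adjusted p = 5.51e-07). Lsm12, an RNA-binding LSM-domain protein, measured 50.7, 47.9, 41.1 and 60.5 CPM in wild-type and 7.04, 6.35, 6.53 and 4.26 CPM in MS1262 libraries (8.29-fold lower, adjusted p = 8.57e-07). The groups were wide apart and the dosed mice tightly grouped in both genes. Gt(ROSA)26Sor, the noncoding transcript of the Rosa26 locus, fell 6.58-fold from 148 to 312 CPM to 27.2 to 34.7 CPM. Clasp2, a microtubule plus-end protein of neurons and glia, measured 156, 139, 156 and 164 CPM in wild-type and 71.4, 68.4, 63.6 and 59.2 CPM in MS1262 libraries (2.34-fold lower, adjusted p = 3.43e-06). Mir124-2hg, host transcript of the neuronal microRNA miR-124, fell from 63.6 to 143 CPM to 24.3 to 33.1 CPM, and Trim21, a cytosolic antibody receptor, from 3.2 to 5.42 CPM to 0.445 to 1.23 CPM. Tmem242, Lsm12, Gt(ROSA)26Sor, Clasp2 and Mir124-2hg were called in every alternative run. Dynlt1b, a dynein light chain with near-identical copies, fell by 1.45 ± 0.17, and Pcdhb6, whose family shares sequence, fell by 1.35 ± 0.27 (adjusted p = 0.023, up to 0.0762 in single omissions). Counts of both are uncertain, since reads of copies can be split between them. Fxyd2, a regulator of the sodium pump, was called lower (-1.15 ± 0.24, adjusted p = 0.0329) and in 1 of the 8 omissions.

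**Figure D4:**
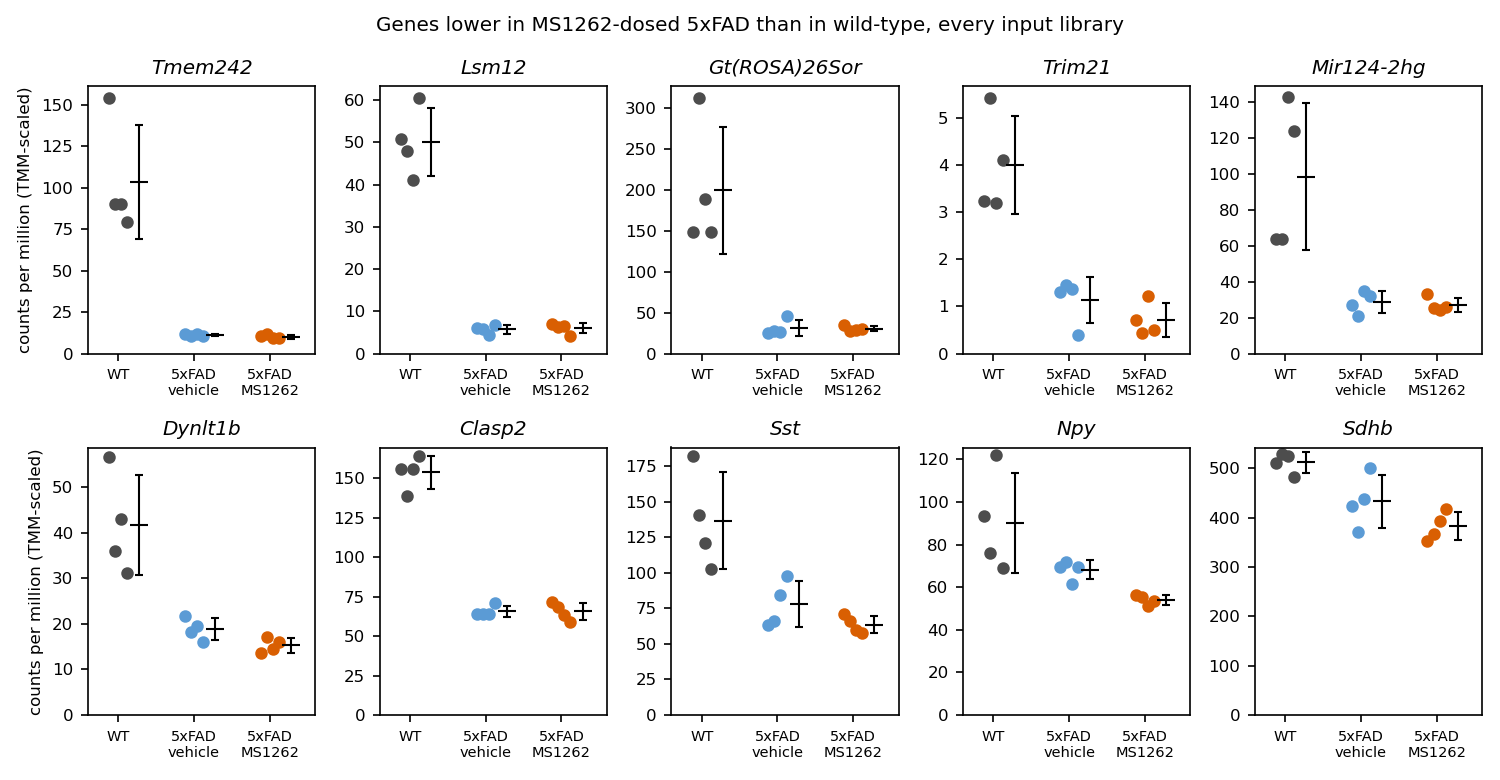
CPM (vertical axes, TMM-scaled, shown from 0) of 10 genes called lower, in each input library of wild-type, vehicle 5xFAD and MS1262 5xFAD mice (points), with the group mean and SD beside them (n = 4). For Tmem242, Lsm12 and Clasp2 both 5xFAD groups lie together below wild-type, whereas Npy reads 51.1 to 56.4 CPM with MS1262, 61.7 to 72 CPM with vehicle and 69.2 to 122 CPM in wild-type.

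Several pseudogenes and predicted genes, singled out after their values were seen, were read in wild-type and at or near 0 in MS1262-dosed 5xFAD mice. Gm10259 held 614, 775, 422 and 728 counts in the wild-type libraries and 0 in each of the 4 MS1262 libraries, at least 824-fold lower against a floor of 3 counts over the group. Rps3a3 held 3140, 3260, 19 and 1618 counts in wild-type and 0 in each MS1262 library, at least 2607-fold lower. Vehicle-dosed 5xFAD libraries read the same, with 0 counts of Gm10259 in each and 1, 0, 4 and 5 counts of Rps3a3. The strain background of the groups is not given in the sources used here, and its part in these rows was not tested. Wild-type library 3 sat near the 5xFAD level for Rps3a3, and it also read Capza1-ps1 at 2.2 CPM and Rps3a2 at 3.82 CPM, where the other wild-type libraries gave 56.9 to 109 and 48.3 to 113 CPM and the MS1262 libraries 2.04 to 2.71 and 3.32 to 5.63 CPM. Those 2 were the called genes whose groups overlapped. Gm6969 showed the same in wild-type library 2, at 1.53 CPM against 24.2 to 33.4 CPM. In the opposite direction, Gm1966 held 0 counts in all wild-type libraries and 43, 33, 11 and 37 in MS1262 libraries, at least 42.5-fold higher. Atp6v0d2, a proton pump subunit of osteoclasts and macrophages, held 2 counts in wild-type against 289, a ratio of 148 with a 95% counting interval of 40.7 to 1232. Reads of pseudogene copies and of their parent genes can be exchanged in counting, so the rows of pseudogenes and predicted genes are uncertain.

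The called genes outside the lists held further genes known from myeloid cells, again singled out after their values were seen. Tlr2, a receptor for bacterial lipoproteins, rose from 0.451 to 0.834 CPM to 2.83 to 5.06 CPM (2.75 ± 0.38, adjusted p = 0.00199). Cd14, a co-receptor for lipopolysaccharide, rose from 5.71 to 8.39 CPM to 21.3 to 30.3 CPM. Lilrb4a and Cd200r4, immunoglobulin-like receptors of myeloid cells, rose from at most 0.389 and 0.132 CPM to at least 2.28 and 1.44 CPM. Mmp12, the macrophage elastase, and Pdcd1, the inhibitory receptor PD-1, stood at 0 to 0.0726 CPM and 0 to 0.0484 CPM in wild-type against 0.748 to 2.83 CPM and 0.971 to 1.63 CPM in MS1262 libraries. Hjurp, the chaperone of the centromeric histone CENP-A, measured 1.49, 1.91, 2.02 and 3.39 CPM in wild-type and 18, 13.5, 11.9 and 12 CPM in MS1262 libraries (2.64 ± 0.23, adjusted p = 5.12e-05). Of genes of dividing cells, 0 of 17 tested were called (median 0.32). Lars2, the mitochondrial leucyl-tRNA synthetase, rose from 435 to 551 CPM to 788 to 1058 CPM (0.91 ± 0.16, adjusted p = 0.0114).

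By position, 24 of 1017 tested genes on chromosome 1 were called (2.36%), the highest share of any chromosome, and 3 of 518 on chromosome 16 (0.579%), the lowest. Within 1 Mb of each other, 31 of the 127 placed genes with at least 2-fold calls formed 14 groups of the same direction. The group with the most genes, at chr1:170960558-171890718 (GRCm38), held 5 called genes of 33 tested, Fcgr2b, Arhgap30, Ly9, Cd48 and Cd84, which are receptors and signalling proteins of leukocytes. C1qb with C1qc on chromosome 4, Ccl6 with Ccl3 on chromosome 11 and Csf2rb2 with Csf2rb on chromosome 15 were pairs of related genes. Among lower genes, Dynlt1b lay beside Tmem181b-ps on chromosome 17, and Etv4 near Lsm12 on chromosome 11. Tmem242, not placed in a group, lies on chromosome 17 too, at chr17:5410864-5440260, with Dynlt1b at chr17:6429530-6440500. Whether these falls share a regional cause was not tested. The 3 nearest tested genes on each side of Tmem242, Lsm12, Clasp2, Gt(ROSA)26Sor and Hjurp were not called.

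Mitochondrially encoded RNA took 10.8, 10, 11.8 and 9.99% of counts in wild-type and 12.3, 12.9, 12.7 and 12.7% in MS1262 libraries. All 4 MS1262-dosed mice lay above all 4 wild-type mice, a difference of 1.98 percentage points (exact permutation p = 0.0286, two-sided, the smallest that 4 against 4 can give). Vehicle-dosed 5xFAD libraries held 13.9, 12.9, 12.6 and 16.7%, and against wild-type 5 of the 15 genes were called higher there (median 0.38). For MS1262 against wild-type, no single gene of the 15 was called and all 15 lay above 0 (median 0.21). Of these, mt-Co3, a subunit of cytochrome c oxidase, read 7941 to 9062 CPM in wild-type and 10061 to 10941 CPM in MS1262 libraries. Nuclear genes of oxidative phosphorylation leaned the other way, with 31 of 38 below 0 (median -0.14) and 1 called. That gene was Sdhb, the iron-sulphur subunit of succinate dehydrogenase, at 483 CPM or more in wild-type against 352 to 418 CPM (fell by 0.42 ± 0.10, adjusted p = 0.0471, called in none of the 8 single omissions). Transcript length moved with the fold changes. Genes with a mean log2 CPM of at least 1 were split into 3 equal classes of relative transcript length, taken from the ratio of counts to TPM. The shortest class had a median of -0.10 and 54 higher and 39 lower calls, and the longest a median of 0.08 and 49 higher and 5 lower calls. The part of length in these results was not tested.

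Cholesterol synthesis genes were not called (0 of 23), though 11 did not overlap between groups and all 11 of those were higher in the dosed mice, where 5.23% of all tested genes did so. The median of the list was 0.27. Stress genes of the endoplasmic reticulum held 1 call of 21, Asns, asparagine synthetase, which fell by 0.34 ± 0.08 (adjusted p = 0.0398, called in none of the 8 omissions). Cytoplasmic ribosomal protein genes held none of 77 (median -0.05).

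Vehicle-dosed 5xFAD mice, which share the wild-type libraries with the comparison above, gave 278 calls against wild-type (1.57% of tested genes), 187 higher (1.06%) and 91 lower (0.514%). Cst7 read 32.3, 59, 7.49 and 22.5 CPM with vehicle, Thy1 482, 746, 273 and 384 CPM, and Tmem242 11.9, 10.6, 11.6 and 10.5 CPM. By list, vehicle against wild-type called 21 disease-associated microglial, 5 homeostatic microglial, 7 complement, 16 lysosomal and 4 reactive astrocyte genes higher. Differences in calls between those 2 comparisons were not read as differences between dosed groups, which was tested directly.

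MS1262 against vehicle, both in 5xFAD mice, called none of 17693 genes in edgeR, with 1003 genes (5.67%) at an unadjusted p below 0.05. DESeq2 called 3. Leaving out vehicle library 2 or 3 gave 2 and 1 calls. For Cst7 the difference was 0.22 log2 units with a 95% interval of -0.72 to 1.16, for Clec7a -0.15 (-1.12 to 0.82), for Trem2 0.23 (-0.52 to 0.99) and for Gfap -0.06 (-0.79 to 0.67). These intervals do not show that the groups are alike. Tighter intervals were obtained for Clasp2 (-0.19 to 0.18), Ctsd (-0.49 to 0.23) and Ehmt2 (-0.30 to 0.45). The 5 protein-coding genes with the smallest p, all at an adjusted p of 0.848, were Acp1, Ttc23, Hsf3, F13a1 and Tnfaip8. Ttc23 measured 2.28, 2.43, 2.3 and 2.04 CPM with MS1262, 5.07, 5.02, 5.34 and 3.24 CPM with vehicle and 3.25 to 4.96 CPM in wild-type. F13a1, a transglutaminase of border macrophages, read 2.33 to 3.04 CPM with MS1262 and 9.78, 2.72, 8.28 and 9.81 CPM with vehicle, where one vehicle library lay at the MS1262 level. Itm2a was lower with MS1262 than with vehicle by an interval of -0.94 to -0.26 log2 units and Npy by -0.63 to -0.03, with adjusted p-values of 0.848 and 0.849. Dcstamp was higher by 0.40 to 2.66 (adjusted p = 0.848). Other lists of non-neuronal cells moved with Itm2a in this comparison. The medians were -0.48 for endothelial and mural genes (8 of 20 at an unadjusted p below 0.05) and -1.02 for meninges and fibroblast genes (8 of 15). They were -2.80 for choroid plexus genes (13 of 13) and -1.18 for red blood cell genes (3 of 5). Vehicle library 3 was then left out, an omission chosen after seeing the data because that library stood apart by its choroid plexus genes. The medians became, in the same order, -0.32 (3 of 20), -0.66 (3 of 15), -0.08 (0 of 13) and -1.21 (3 of 5). Without that library the interval of Itm2a was -0.88 to -0.155 log2 units, of Npy -0.70 to -0.04 and of Dcstamp 0.13 to 2.45 (each adjusted p = 0.979).

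**Figure D5:**
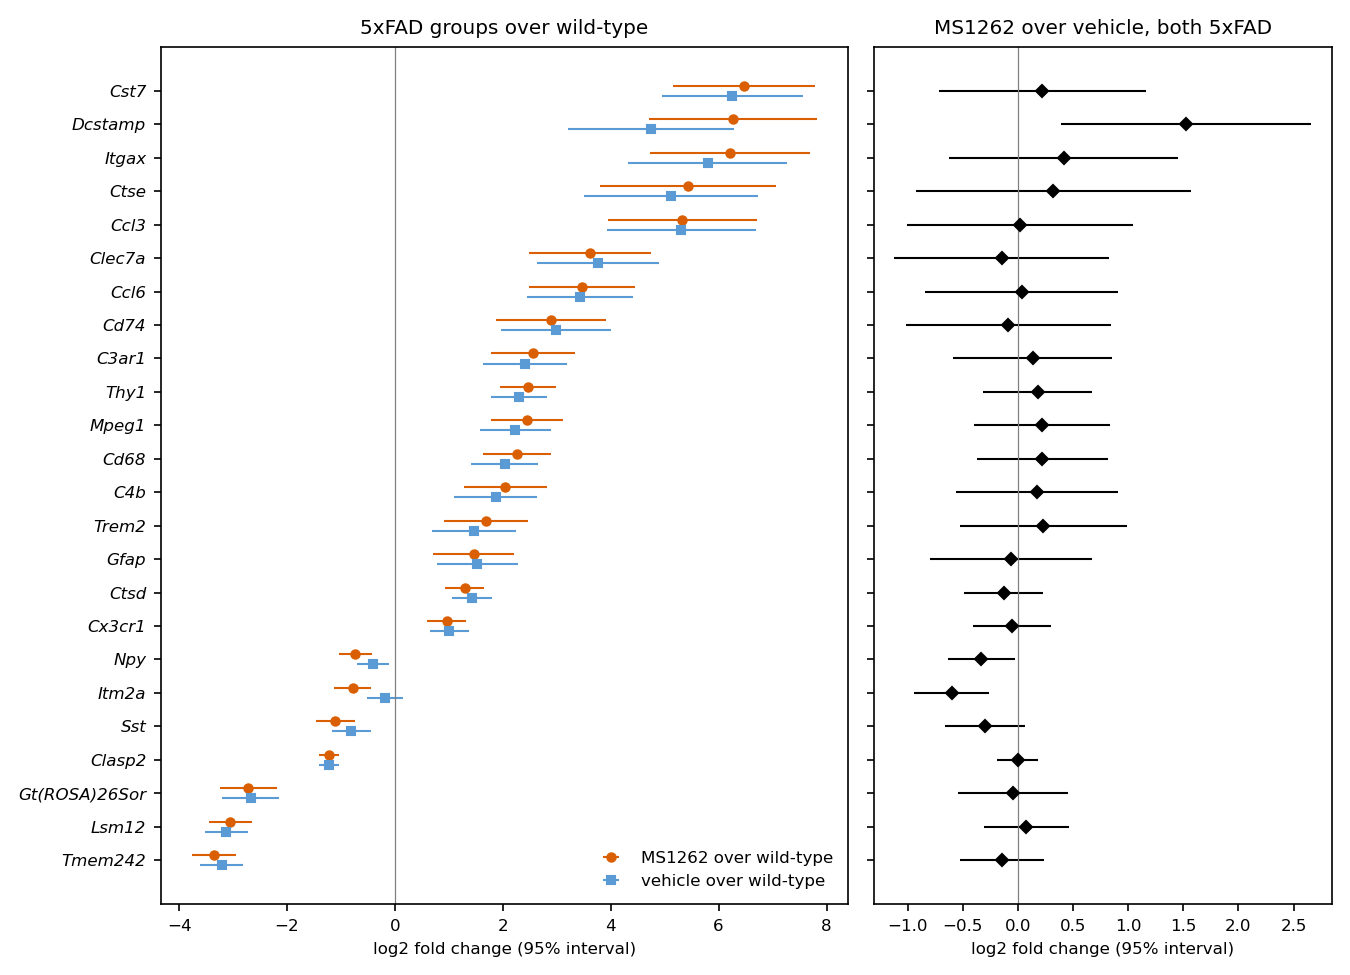
Log2 fold changes with 95% intervals (horizontal axes) of 24 named genes. On the left stand MS1262 5xFAD over wild-type (circles) and vehicle 5xFAD over wild-type (squares), which share the wild-type libraries, and on the right MS1262 over vehicle (diamonds), where 21 of the 24 intervals include 0 and those of Dcstamp, Itm2a and Npy do not.

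The m6A immunoprecipitations of the same 8 mice gave a second library per mouse, normalised apart from the inputs and, from the same RNA, no independent replicate. Of the 230 called genes, 165 did not overlap between the MS1262 and wild-type immunoprecipitations in the same direction, and 3 did so in the opposite direction, where 14.0% of tested genes did not overlap. Those 3, named after their values were seen, were Reep2, Tspan12 and Tmco1. Each was called lower in the inputs and was higher in the immunoprecipitations of the dosed mice. Reep2, which shapes the endoplasmic reticulum of neurons, read 9.61 to 17 CPM in wild-type inputs and 5.08 to 6.96 CPM in MS1262 inputs (fell by 1.00 ± 0.19, adjusted p = 0.0192), but 13.3 to 20 CPM in wild-type and 25.5 to 42 CPM in MS1262 immunoprecipitations. For Tmco1 and Tspan12 the immunoprecipitations barely separated, with 62.1 to 69 CPM in wild-type against 69.5 to 72 CPM for Tmco1.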

How the data were processed

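Libraries of hippocampal poly(A) RNA were SMART-seq preparations, per the labels' protocols. No molecular identifiers are named, so floors and counting intervals cover counting error only. Per the submitters' processing notes, the tools included Salmon 1.4.0, STAR 2.7.6a and Trimmomatic 0.32, and the builds GRCm38 and mm10, with no roles stated. The step that made the gene table is not given in the sources used here. Whether strand was used is not given in the sources used here. The authors deposited estimated counts per gene for 55291 rows, of which 21.4% of values above 0 were not whole, and these were rounded before testing. The authors also deposited TPM per gene, used only as an alternative scale. Peak files were not used.

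Genes passing edgeR's filter (minimum count 10) were fitted over all 12 input libraries in 3 groups with edgeR 4.0.16 (R 4.3.3, TMM scaling, quasi-likelihood F test, 9 residual degrees of freedom), with Benjamini-Hochberg adjustment over all 17693 genes. A list member passing the filter only through its higher group had to differ, so list counts are descriptions. Alternatives used DESeq2 1.42.0 and limma 3.58.1. On simulated data for this comparison (17272 genes), 50% of 1-unit and 76% of 2-unit log2 rises were recovered, with 4 false calls among 126. Libraries are labelled as biological replicates, 4 per group, and no batch is given. Replicate numbers did not pair mice across groups (same-number correlations -0.093 to -0.013). Positions and promoters came from RefSeq, GRCm38.p6, matched by symbol for 16454 tested genes. Named genes were a fixed set (transgene, target, marker and sex-linked genes), the 10 largest called changes each way at a mean log2 CPM of at least 1 without overlap, passing over predicted genes and pseudogenes, up to 4 called members per list by smallest p (or 2 members of a list without calls), and the 5 smallest p of protein-coding genes against vehicle. Genes named beyond that rule, including uncalled list members, were picked after their values were seen. Some named-rule genes and list members are not reported here. Members and lists were chosen with earlier results of these data known. Python 3.11.15, SciPy 1.17.1 and pandas 2.3.3 made the tables.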

Additional observations from a re-analysis of the deposited data

Results flagged for a closer look

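In groups of 4 libraries, 72 sets of values were examined for a lone value whose gap to its nearest neighbour was above Dixon's 95% critical share of the group's range, which chance meets in about 1 of 20 sets, and 3 sets met it. Wild-type library 1 read Tmem242 at 154 CPM against 79.1 to 90 CPM, on the far side from the dosed mice, and the gene was called without that library as well. The choroid plexus sum was 2925 CPM in wild-type library 3 and 1170 CPM in MS1262 library 3, against at most 934 and 737 CPM in the others of each group, and no choroid plexus gene was called.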

How the results depend on the processing

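None of the 230 genes called against wild-type changed sign in any alternative that tested it, while the number called moved. DESeq2's size factors gave 234 genes, and 228 were shared. Without a low-count filter 336 were called, 111 of them lower, and with only the 8 libraries compared 333, 110 of them lower. DESeq2 called 631 genes (386 higher, 245 lower) and 3 against vehicle. On log2(TPM + 1) limma called 132 (60 higher, 72 lower), on log2(TPM + 0.1) 142 (69 higher, 73 lower) and on log2(TPM + 1) without a filter 45 (17 higher, 28 lower). At an adjusted p below 0.01 there were 70 calls, and with a 2-fold minimum 135. The numbers of the mice share no source by label, and a fit with the replicate number as a block called 168 (133 higher, 35 lower), 151 of them shared. Leaving out 1 library gave 105 to 279 calls, 80 to 201 higher and 22 to 78 lower, the upper end without vehicle library 3, an omission added after seeing the data, and 0 to 2 calls against vehicle. Signs reversed only in genes that were not called: the log2 fold change of App was -0.0314, -0.0315 and -0.0314 on the 3 TPM settings, the log2 fold change of Xist ran from -0.0652 to 0.3090 in single omissions (below 0 without MS1262 library 1), and the log2 fold change of Ttr from -2.4991 to 0.5085 (above 0 without wild-type library 3). The difference in mitochondrial share lay between 1.76 and 2.36 percentage points in single omissions and was 1.85 without ribosomal RNA. The causes of these shifts were not tested. With 4 mice a group, 50% of simulated rises and 53.2% of simulated falls of 1 log2 unit were recovered, so 2-fold changes were often missed. For 2 log2 units the shares were 76% and 72.3%. Smaller changes were not simulated, and genes under about 1 CPM carry wide errors.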
